A study of Mus musculus with 3 samples.

Results

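The Ms4a genes encode membrane-spanning 4-domain proteins of the A subfamily, small proteins that cross the plasma membrane repeatedly and sit beside immune receptors. The 8 members described here are Ms4a1, Ms4a2, Ms4a4b, Ms4a4c, Ms4a6b, Ms4a6c, Ms4a6d and Ms4a7. They were taken by their listed symbols from the gene names of the count matrices, where all 8 were found, among 19 genes whose symbol starts with Ms4a and 31053 mouse genes in all. Ms4a1 encodes the B cell surface protein CD20, and Ms4a2 encodes the beta chain of the high-affinity IgE receptor of mast cells and basophils. Most other members are known from T cells, monocytes or macrophages, and several of their partners are not known. In human genetics the gene cluster is tied to the amount of soluble TREM2, the shed form of a lipid-sensing receptor of macrophages, which is why the members were also read against Trem2 in single cells.

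Single-cell RNA was counted in 3 mouse libraries, each made once. Co-Mac is bone marrow from C57/BL6 mice grown for 7 days with GM-CSF at 200 U/ml and then left untreated, and VD-Mac is the same culture given the hormone form of vitamin D3 (VD3) at 1 µM for 24 h. hSTSG is the cells recovered by collagenase digestion from human split-thickness skin that had lain for 14 days under the skin of C57BL6/J mice, which were wild-type, with 5 of them pooled. The labels give no age. The matrices hold mouse genes only, so that values from the graft are read here as host RNA. Human cells left in the graft were not looked for.

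A library's depth is its number of UMIs, the molecule tags that count each captured transcript once. Co-Mac held 7866 barcodes with 136905324 UMIs, VD-Mac 9794 with 124731240 and hSTSG 2644 with 24472168. After barcodes with under 300 genes, with 100000 UMIs or more, or with 10% or more mitochondrial UMIs were removed, 7257, 8825 and 2144 cells remained, at a median of 15804, 12089 and 6637.5 UMIs. Among kept cells, Co-Mac and VD-Mac shared 15 barcodes, Co-Mac and hSTSG 3, and VD-Mac and hSTSG 6. With 1 library per condition there is no replicate, so that no difference between conditions could be tested. The 95% intervals in brackets are exact and cover counting error only.

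Cells of each library were clustered without the Ms4a genes, the related Tmem176a and Tmem176b, and Trem2, and clusters were named from marker genes of which none is an Ms4a gene. The naming rule and the splitting of mixed clusters were settled after the clusters had been seen. Co-Mac and VD-Mac each gave 7 named classes and hSTSG gave 10, written with "-like" because the name rests on RNA alone. The label "macrophages" covers only part of the cultures. Macrophage-like cells made up 29.2% of Co-Mac (28.1% to 30.2%) and 20.9% of VD-Mac (20.1% to 21.8%), beside 36.3% and 37.6% mature-dendritic-like cells, with 924 and 1148 neutrophil-like cells. Unnamed cells made up 12.0% and 24.2%. Among them, a cluster of 254 cells in Co-Mac and one of 495 in VD-Mac had 8 of the 9 macrophage markers in 10% or more of their cells, summing to 891 CPM (UMIs of a gene in each 1000000 UMIs of the summed cells) and 1384 CPM. A further unnamed cluster of VD-Mac, with 1442 cells led by Stmn1, Cdk1 and Mif, had 5 of the 9 in 10% or more of its cells, summing to 1432 CPM. The macrophage-like shares, and which culture has the larger one, thus depend on the naming limit. All 9 macrophage markers were detected in the macrophage-like cells of each library, with a summed level of 1736 CPM in Co-Mac, 2838 in VD-Mac and 24506 in hSTSG. In the graft, the cluster named monocyte-like had Hbb-bs, a globin gene, as its leading gene, and a cluster of 269 cells led by Mmp12, Spp1 and Gpnmb had all 9 macrophage markers but scored too low on them to be named. That cluster is given below by its leading genes, beside the named classes.

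Each member had UMIs in all 3 libraries, and the classes holding its highest level ran from B cells through T cells and basophils to macrophages. In hSTSG, the highest class of 7 of the 8 members stood beyond counting error of the next class, beside 41.6% of the 11595 genes that reached 10 CPM in a class. The count was 7 of 8 in Co-Mac, where Ms4a7 did not reach 10 CPM, beside 43.1% of 9575 genes, and 8 of 8 in VD-Mac, beside 35.4% of 9524. In hSTSG, the same 7 classes came back in 1 of 7 alternative processings, mostly since the order of neighbouring myeloid classes turned for Ms4a6b and Ms4a4c, as given below.

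**Figure D1:**
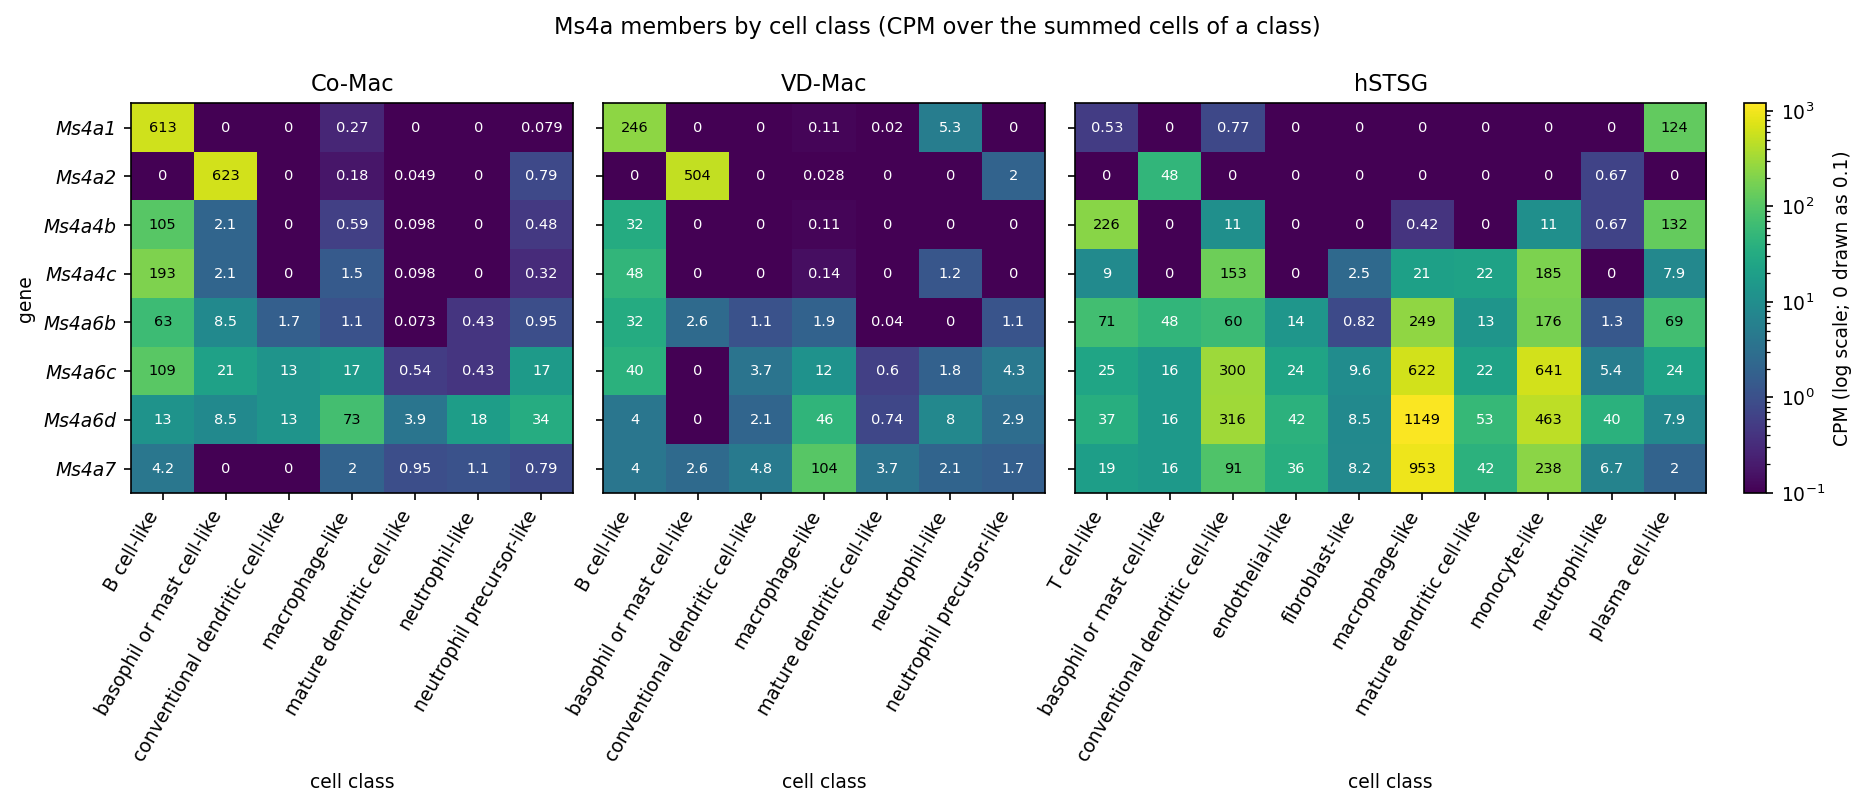
Level of each of the 8 members in every named class of the 3 libraries in CPM on a log colour scale, with the CPM written in each cell. Ms4a1, Ms4a2 and Ms4a4b each have 1 or 2 bright classes, and Ms4a6c, Ms4a6d and Ms4a7 are bright across the graft's monocyte-like, macrophage-like and dendritic-like cells.

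Ms4a1, the CD20 gene, marked the B-lineage classes of all 3 libraries. Its level was 613 CPM (518 to 721) in the 31 B-like cells of Co-Mac, 246 CPM (188 to 317) in the 30 of VD-Mac and 124 CPM (95.5 to 159) in the 44 plasma-like cells of hSTSG. These classes held 88.0%, 65.6% and 96.9% of all Ms4a1 UMIs of their library. The next class stood at 0.271 CPM in Co-Mac (macrophage-like, 17 UMIs), 5.34 CPM in VD-Mac (neutrophil-like) and 0.765 CPM in hSTSG (dendritic-like, 1 UMI). All 26 UMIs behind the value in VD-Mac neutrophil-like cells came from 1 cell. Within the B-lineage classes, Ms4a1 was read in 17 of 23 cells of Co-Mac, 11 of 17 of VD-Mac and 12 of 17 of hSTSG that had a UMI of Cd79a or Cd79b, the signalling chains of the B cell receptor, and no UMI of a Cd3 chain. It was read in none of the 4, 3 and 4 cells of those classes that had a Cd3 UMI and no Cd79 UMI. Its level in the cells with a Cd79 UMI alone was 695 CPM (587 to 817) in Co-Mac, 524 CPM (401 to 674) in VD-Mac and 232 CPM (178 to 297) in hSTSG. The value of the whole class is thus lowered by other cells. In VD-Mac, 10 of the 30 B-like cells had neither a Cd79 nor a Cd3 UMI and no Ms4a1 UMI, and held 50.7% of the class's UMIs. In these 10 cells all 4 megakaryocyte markers were read, summing to 1450 CPM with Itga2b at 1203 CPM, beside 318 CPM in the cells with a Cd79 UMI alone, and 6 of the 7 B cell markers were at 0. At under 5% mitochondrial UMIs the B-like class of Co-Mac was no longer found, and the highest class of Ms4a1 in hSTSG no longer stood apart.

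Ms4a2, the IgE receptor's beta chain, was nearly confined to the basophil-or-mast-like cells of the cultures. There its level was 623 CPM (554 to 699) in the 32 cells of Co-Mac and 504 CPM (436 to 580) in the 35 of VD-Mac, which held 92.1% and 96.1% of its UMIs. Neutrophil precursor-like cells came next, at 0.794 CPM and 2.00 CPM. Among cells thinned to 2000 UMIs, so that depth is equal, 53.1% (34.7% to 70.9%) of the class had an Ms4a2 UMI in Co-Mac and 51.4% (34.0% to 68.6%) in VD-Mac, beside 0 of 2117 and 0 of 1845 macrophage-like cells. The medians before thinning were 12650 and 7529 UMIs in the basophil-or-mast-like cells and 23647.5 and 16745.5 UMIs in the macrophage-like cells. Fcer1a, the IgE-binding chain of the same receptor, had its highest level in the same class, at 771 CPM in Co-Mac and 620 CPM in VD-Mac. Cma1, a mast cell protease gene among the 8 markers, was at 0 there in both cultures, while 7 of the 8 were detected. In hSTSG only 13 cells fell in the class, with Tpsb2 and Cma1 at 0, and 3 Ms4a2 UMIs gave 47.9 CPM (9.87 to 140).

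Ms4a4b, a T cell member that in mouse modulates T cell activation, was highest in the T-like cells of the graft. It stood at 226 CPM (205 to 248) in T-like cells, 132 CPM (102 to 168) in plasma-like cells, 10.7 CPM in both monocyte-like and dendritic-like cells and 0.417 CPM in macrophage-like cells. The T-like level was 1.71-fold (1.32 to 2.24) the plasma-like one. The 2 T-like clusters differed far more than that. The cluster led by Nkg7 and Cd28, with 178 cells, had 356 CPM (323 to 392), and the cluster led by Il17a and Trdc, a gene of the gamma-delta T cell receptor, with 123 cells, had 9.82 CPM (3.95 to 20.2), a 36.3-fold ratio (17.5 to 90.8). After thinning to 2000 UMIs, 41.6% of the first cluster and 0.820% of the second had an Ms4a4b UMI, at median depths of 5552 and 5520 UMIs before thinning. The second-best name of the Nkg7 and Cd28 cluster was NK cell. The 5 NK cell markers, none at 0, summed to 1701 CPM there with Gzma at 1587 CPM, and to 12.6 CPM in the Il17a and Trdc cluster, where Ncr1, Klre1 and Eomes were at 0. Over both clusters, Ms4a4b was at 199 CPM (178 to 221) in the 257 cells with a Cd3 UMI and no Cd79 UMI, and at 429 CPM (333 to 543) in the 30 cells with neither, 16 of which had it. Those 30 cells had all 5 NK cell markers, at 8447 CPM summed, and 3 of the 7 T cell markers at 0. The T-like class thus takes in cells with NK cell RNA, whose part in the difference between the clusters was not tested.

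In the B-lineage classes, Ms4a4b was carried by cells with T cell receptor RNA. In the B-like classes of the cultures it stood at 105 CPM (67.9 to 155) in Co-Mac and 32.3 CPM (14.0 to 63.7) in VD-Mac. The UMIs behind these values lay in 4 of 4 and 3 of 3 cells with a Cd3 UMI and no Cd79 UMI, and in none of the 23 and 17 cells with the reverse. In the plasma-like class of hSTSG, 63 of its 67 Ms4a4b UMIs lay in the 4 cells with a Cd3 UMI and no Cd79 UMI, the other 4 in 1 cell with neither, and none in the 17 cells with a Cd79 UMI alone. The culture classes named B-like therefore held a few T-like cells, and the value of Ms4a4b there is theirs. At 300 or more UMIs per cell in place of 300 genes, the highest class of Ms4a4b and of Ms4a6b in Co-Mac was megakaryocyte-like and no longer B-like.

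Ms4a4c, the nearest relative of Ms4a4b and known from monocytes and activated lymphocytes, had a different pattern. In the graft it was highest in monocyte-like cells at 185 CPM (170 to 201), followed by dendritic-like cells at 153 CPM (133 to 176), mature-dendritic-like cells at 22.2 CPM, macrophage-like cells at 21.0 CPM and T-like cells with 17 UMIs among 301 cells. The step from dendritic-like to monocyte-like cells was small, 1.21-fold (1.03 to 1.43), and turned or was lost in 4 of 7 alternative processings. Macrophage-like cells had 0.114-fold (0.0912 to 0.141) the monocyte-like level, and the Mmp12 and Spp1 cluster had 23.2 CPM. In the cultures, where no cluster was named monocyte-like, the B-like class was highest, at 193 CPM (141 to 258) in Co-Mac and 48.5 CPM (25.0 to 84.7) in VD-Mac. There Ms4a4c did lie in B cells: in Co-Mac 15 of the 23 cells with a Cd79 UMI alone had it, against 1 of 4 with a Cd3 UMI alone. In VD-Mac fewer had it, 4 of 17 against 0 of 3, and those 4 cells held all 12 UMIs of the class.

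Ms4a6b, known from T cells and macrophages, was read in both lineages of the graft. It stood at 249 CPM (235 to 263) in macrophage-like, 176 CPM (161 to 192) in monocyte-like, 71.0 CPM (59.5 to 84.0) in T-like, 69.0 CPM in plasma-like, 61.1 CPM in the Mmp12 and Spp1 cluster and 60.4 CPM in dendritic-like cells. The macrophage-like level was 1.41-fold (1.27 to 1.57) the monocyte-like one, an order that turned round in 5 of 7 alternative processings, with no value called for it in a sixth. T-like cells repeated the split of Ms4a4b, with 108 CPM (90.1 to 129) in the Nkg7 and Cd28 cluster against 9.82 CPM (3.95 to 20.2) in the Il17a and Trdc cluster. Other members were higher in the first cluster too. The ratio was 9.70 (1.51 to 407) for Ms4a4c, 6.67 (2.43 to 25.6) for Ms4a6c, 4.85 (1.72 to 18.9) for Ms4a7 and 2.88 (1.53 to 5.90) for Ms4a6d. The part of that cluster's NK cell RNA in these ratios was not tested. The 33 UMIs of Ms4a6b in plasma-like cells with a Cd3 UMI alone lay in 3 of 4 cells. In the cultures its highest class was B-like, at 63.0 CPM in Co-Mac and 32.3 CPM in VD-Mac, and again 14 and 7 of the 15 and 8 UMIs came from cells with a Cd3 UMI alone.

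Ms4a6c is a monocyte and macrophage member. In hSTSG it stood at 641 CPM (612 to 670) in monocyte-like cells and 622 CPM (599 to 644) in macrophage-like cells, which did not differ beyond counting error (1.03-fold, 0.973 to 1.09), though in 6 of 7 alternative processings the monocyte-like cells stood beyond it. Dendritic-like cells had 300 CPM (271 to 331) and the Mmp12 and Spp1 cluster 293 CPM, and every other class had 25.4 CPM or less. A UMI was read in 69.4% (64.1% to 74.4%) of thinned macrophage-like cells, beside 1.69% (0.553% to 3.91%) of thinned T-like cells, at median depths of 11051 and 5552 UMIs. In the cultures the levels were lower, at 16.8 CPM in macrophage-like and 17.0 CPM in neutrophil precursor-like cells of Co-Mac, below the 109 CPM (71.3 to 160) of its B-like cells, where 9 of 23 cells with a Cd79 UMI alone had it.

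Ms4a6d, known from macrophages, had its highest level in the macrophage-like cells of all 3 libraries, though in Co-Mac, clustered at resolution 0.3, it was no longer among the members whose highest class stood beyond counting error. The graft's macrophage-like cells had 1149 CPM (1118 to 1179), the Mmp12 and Spp1 cluster 645 CPM (622 to 668), monocyte-like cells 463 CPM (439 to 488), dendritic-like cells 316 CPM (286 to 348) and neutrophil-like cells 40.3 CPM (30.7 to 51.8). The step to monocyte-like cells was 2.48-fold (2.34 to 2.63). In Co-Mac, macrophage-like cells stood at 73.5 CPM (71.4 to 75.6), 2.15-fold (1.95 to 2.38) the 34.1 CPM of neutrophil precursor-like cells, and in VD-Mac at 46.3 CPM (44.1 to 48.6), beside 8.01 CPM in neutrophil-like cells. The share of thinned macrophage-like cells with a UMI followed the same order, with 80.6% in hSTSG, 13.6% in Co-Mac and 6.67% in VD-Mac, beside 2.37% of thinned T-like cells of hSTSG, at median depths of 11051, 23647.5, 16745.5 and 5552 UMIs.

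Ms4a7, a marker of mature tissue macrophages, was higher in macrophage-like than in monocyte-like cells of the graft. It stood at 953 CPM (925 to 981) in macrophage-like cells, 643 CPM (621 to 666) in the Mmp12 and Spp1 cluster, 238 CPM (220 to 256) in monocyte-like cells and 91.0 CPM (75.4 to 109) in dendritic-like cells. Macrophage-like over monocyte-like cells gave 4.01-fold (3.70 to 4.35). A UMI was read in 76.9% (71.9% to 81.3%) of thinned macrophage-like cells and 31.1% (25.9% to 36.7%) of monocyte-like ones, beside 1.42% (0.172% to 5.03%) of fibroblast-like cells, whose median depth of 24700 UMIs was the highest. Untreated cultures had almost none of it, with 1.98 CPM (1.65 to 2.36) in macrophage-like cells of Co-Mac. The highest unnamed cluster of Co-Mac, led by Inhba, Cav1 and Cd36, reached 10.3 CPM (8.11 to 12.8).

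In the graft, members were often read together in the same cell. After thinning to 2000 UMIs, 3 of 324 macrophage-like cells of hSTSG had no member, 35 had 1, 102 had 2, 119 had 3, 63 had 4 and 2 had 5. Ms4a6d and Ms4a7 were both read in 203 cells, 77.8% (72.2% to 82.7%) of those with Ms4a6d and 73.0% (60.3% to 83.4%) of those without it having Ms4a7. Those shares overlap, so that reading the first told little about the second. In the Mmp12 and Spp1 cluster the shares stood apart, at 62.6% (54.5% to 70.2%) and 43.6% (33.4% to 54.2%) for the same pair and at 46.5% (38.4% to 54.6%) and 16.0% (9.22% to 25.0%) for Ms4a6c with and without Ms4a6d. In the cultures few cells had more than 1 member: 39 of 1845 macrophage-like cells of VD-Mac had 2 and 2 had 3, and 21 of 2117 of Co-Mac had 2 and 1 had 3, while 79.0% and 83.5% had none. VD-Mac macrophage-like cells had Ms4a7 in 25.2% (17.8% to 33.8%) of cells with Ms4a6d and 13.8% (12.2% to 15.5%) of those without.

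The 11 Ms4a genes outside the members were placed by the same classes. Ms4a3, known from granulocyte-monocyte progenitors, was at 565 CPM (552 to 578) in neutrophil precursor-like and 589 CPM (522 to 663) in basophil-or-mast-like cells of Co-Mac. Ms4a4d had 121 CPM (110 to 133) in graft fibroblast-like cells, Ms4a8a 91.3 CPM (82.9 to 100) in graft macrophage-like cells and Ms4a14 33.1 CPM (28.2 to 38.7) there. Ms4a4a stood at 43.0 CPM in graft monocyte-like and 39.8 CPM in macrophage-like cells. Ms4a5, Ms4a10, Ms4a12 and Ms4a13 had no UMI in a kept cell of any library. The related 4-span genes Tmem176a and Tmem176b were highest in mature-dendritic-like cells of the cultures, at 294 CPM and 334 CPM in Co-Mac, a class in which the 8 members stood at 3.86 CPM or less.

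VD3 over untreated cultures, all kept cells summed, moved 2 of the 3 members that reached 10 CPM past 2-fold, beside 6.79% of 7732 genes. Ms4a7 rose from 1.94 CPM (1.71 to 2.19) in Co-Mac to 42.6 CPM (41.4 to 43.8) in VD-Mac, 22.0-fold (19.4 to 25.0). Ms4a6d fell from 42.4 CPM (41.3 to 43.6) to 17.9 CPM (17.2 to 18.7), 2.37-fold lower (2.25 to 2.49). Ms4a6c went from 10.4 CPM to 5.22 CPM, 2.00-fold lower (1.82 to 2.20), which lies just under the threshold before rounding and was called once the cells with the highest doublet scores were removed. The 7 monocyte markers, none at 0 in either culture, fell alongside, from a sum of 685 CPM in Co-Mac, with Ccr2 the most abundant at 318 CPM, to 258 CPM in VD-Mac, with Ifitm6 the most abundant at 84.7 CPM. Their part in the falls of Ms4a6d and Ms4a6c was not tested. The other 5 members stayed under 10 CPM in both libraries. Ms4a1 was at 1.25 CPM and 0.799 CPM, Ms4a2 at 2.39 CPM and 1.74 CPM, Ms4a4b at 0.558 CPM and 0.120 CPM, Ms4a4c at 1.11 CPM and 0.206 CPM and Ms4a6b at 0.830 CPM and 0.867 CPM. The median log2 ratio of all genes tested was -0.10, and relative to it Ms4a7 stood at 23.6-fold and Ms4a6d at 0.453-fold. With the class make-up of VD-Mac set to that of Co-Mac, Ms4a7 was 28.1-fold higher and Ms4a6d 1.77-fold lower, so that the call for Ms4a6d was lost.

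**Figure D2:**
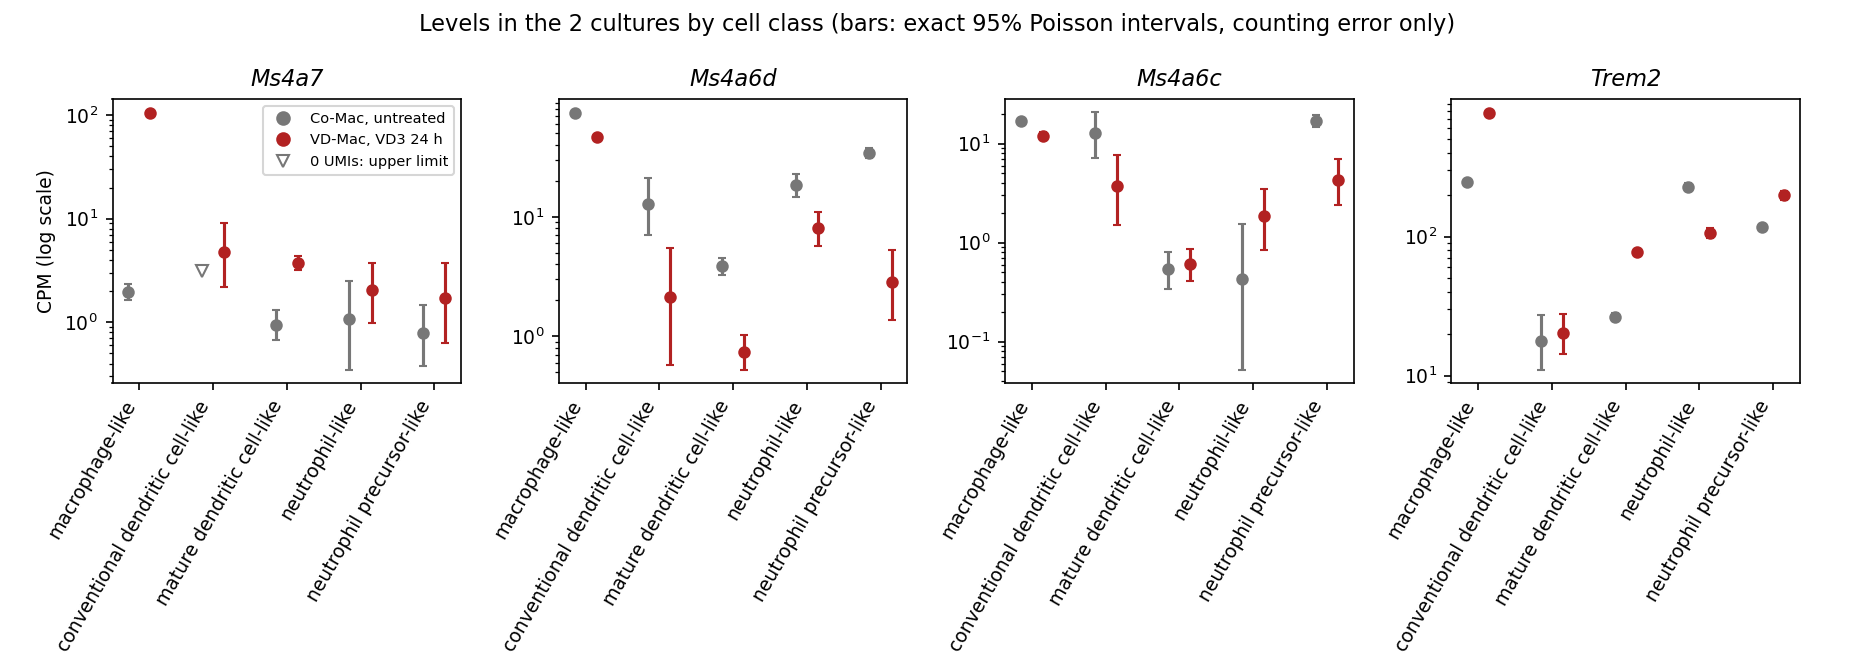
Levels of Ms4a7, Ms4a6d, Ms4a6c and Trem2 in Co-Mac and VD-Mac, in CPM on a log axis, in each class that both cultures hold with 50 or more cells, with exact 95% intervals. Ms4a7 in macrophage-like cells goes from 1.98 CPM to 104 CPM, and Ms4a6d lies lower in VD-Mac in every class drawn.

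Within macrophage-like cells, Ms4a7 alone of the 3 members that reached 10 CPM passed 2-fold, beside 9.37% of 7826 genes. At under 5% mitochondrial UMIs, Ms4a6c was called lower as well, though that filter left few macrophage-like cells in VD-Mac. After thinning there were 66 with and 28 without a Trem2 UMI, in place of 1845 in all. The UMIs of Ms4a7 went from 124 among 2118 cells of Co-Mac to 3723 among 1846 cells of VD-Mac, or from 1.98 CPM to 104 CPM (101 to 108), 52.6-fold (44.0 to 63.5), and 96.8-fold at under 5% mitochondrial UMIs. The share of thinned cells with a UMI went from 0.283% (0.104% to 0.616%) to 14.5% (12.9% to 16.2%). In mature-dendritic-like cells the shares were 0.0761% and 0.784%, and median depths were 23647.5 and 16745.5 UMIs in macrophage-like and 14458.5 and 13697 UMIs in mature-dendritic-like cells. Every macrophage-like cluster of VD-Mac had more of it than any cluster of Co-Mac, from 26.1 CPM (21.0 to 32.0) in the cluster led by Siglecf and Trp53i11 to 132 CPM (127 to 137) in that led by Ccl4 and Ccl2. Unnamed clusters of VD-Mac had it as well, with 57.5 CPM (53.9 to 61.4) in the one led by Mmp12, Cd36 and Plet1 and 34.0 CPM (27.9 to 41.1) in the one led by Stmn1, Cdk1 and Mif.

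Other classes moved less or in few UMIs. Ms4a7 in mature-dendritic-like cells went from 0.952 CPM to 3.75 CPM, 3.94-fold (2.78 to 5.71), with both values under 10 CPM. In dendritic-like cells it went from 0 UMIs (upper limit 3.12 CPM) to 9 UMIs or 4.78 CPM (2.18 to 9.07), intervals that overlap. Neutrophil-like cells had 1.07 CPM and 2.05 CPM, a ratio within counting error (0.598 to 7.17). The macrophage-like level of VD-Mac stood 21.8-fold (11.5 to 47.7) above its next class.

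Ms4a6d was lower in VD-Mac in each of the 5 classes that both cultures hold with 50 or more cells. Macrophage-like cells had 73.5 CPM in Co-Mac and 46.3 CPM in VD-Mac, a ratio of 0.630 (0.595 to 0.666) and under the 2-fold threshold. Neutrophil precursor-like cells had 34.1 CPM (31.0 to 37.5) and 2.86 CPM (1.37 to 5.26), 11.9-fold lower (6.42 to 25.1), and neutrophil-like cells 18.4 CPM and 8.01 CPM, 2.30-fold lower (1.55 to 3.44). Mature-dendritic-like cells had 3.86 CPM and 0.742 CPM, 5.20-fold lower (3.62 to 7.65), and dendritic-like cells 12.7 CPM and 2.12 CPM, 5.98-fold lower (1.91 to 24.8). The direction was thus the same in these classes, and the intervals of the precursor-like and dendritic-like ratios overlap. The classes differ in make-up between the cultures. Precursor-like cells are 1 whole cluster of 557 cells in Co-Mac and a piece of 172 cells, split from a mixed cluster of 958, in VD-Mac. The second-best name of both was monocyte, at scores of 1.93 and 1.95 beside 3.92 and 4.43 for the precursor name. Their leading genes held 2 precursor markers and 3 of other classes in Co-Mac, and 3 and 3 in VD-Mac. The neutrophil-like class of VD-Mac takes in 93 cells from that mixed cluster and a cluster of 94 cells led by Stfa2 and Ngp, whose second score was for neutrophil precursors, and of its 1846 macrophage-like cells 1168 are a whole cluster and the rest pieces of the mixed one. The part of this make-up in the ratios was not tested.

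Ms4a6c was lower in the same precursor-like cells, whose second-best name was monocyte in both cultures. Its level there was 17.0 CPM (14.8 to 19.4) in Co-Mac and 4.29 CPM (2.40 to 7.08) in VD-Mac, 3.96-fold lower (2.35 to 7.20). Macrophage-like cells had 16.8 CPM and 11.9 CPM, 1.42-fold lower (1.27 to 1.59), and mature-dendritic-like cells 0.537 CPM and 0.601 CPM. In dendritic-like cells Ms4a6c was called lower, as Ms4a6d was. That made 2 of 2 members tested there, beside 16.7% of 7555 genes called in either direction. The counts were 2 of 2 in precursor-like cells, beside 12.3% of 7642 genes, and 1 of 1, Ms4a6d, in neutrophil-like cells, beside 5.70% of 7633. The other 5 members did not reach 10 CPM in macrophage-like cells and were not called. Ms4a4c went from 91 UMIs to 5, 10.4-fold lower (4.29 to 32.7), and Ms4a6b from 68 UMIs to 69 in fewer UMIs in all, 1.78-fold higher (1.25 to 2.52). Ms4a4b went from 37 UMIs to 4, 0.189-fold (0.0491 to 0.527), while Ms4a1, with 17 UMIs and 4, and Ms4a2, with 11 and 1, had ratios within counting error. Among Ms4a genes outside the members, Ms4a14 in macrophage-like cells went from 0.0638 CPM to 3.58 CPM, 56.1-fold (21.4 to 209), and Ms4a8a from 4.67 CPM to 0.391 CPM, 11.9-fold lower (7.00 to 22.1), both under 10 CPM. Ms4a3 fell from 14.6 CPM to 3.02 CPM there and from 64.1 CPM to 12.8 CPM in all kept cells, 5.01-fold lower (4.74 to 5.29).

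Partner genes of the members were read from 5 lists. Among all kept cells, where 6.79% of all genes passed 2-fold, all 7 genes of the TREM2 signalling and shedding list reached 10 CPM, 1 rose and none fell past 2-fold, with a median log2 ratio of -0.19. The 1 was Trem2 itself, at 157 CPM and 343 CPM, while its adaptor Tyrobp was at 1048 CPM and 918 CPM. Of the 9 B cell receptor partners 3 reached 10 CPM and 1 of these, Cd81, which encodes a tetraspanin, fell from 181 CPM to 83.8 CPM, with a list median of -0.48. Of the IgE receptor complex 3 of 4 reached it and none passed 2-fold, with a median of 0.09, and neither Tmem176 gene did, with a median of 0.01. None of the 7 T cell receptor genes reached 10 CPM. In macrophage-like cells, where the all-gene median was -0.09 and 9.37% of genes passed, 2 of the 7 genes of the TREM2 list did. Trem2 rose from 248 CPM to 779 CPM and Hcst, another adaptor gene of that list, from 28.0 CPM to 59.8 CPM. No other list gene passed 2-fold.

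Trem2 was read cell by cell in macrophage-like cells thinned to 2000 UMIs, so that a deep cell is not more likely to show both genes. A Trem2 UMI was present in 37.8% (35.7% to 39.9%) of thinned macrophage-like cells of Co-Mac, 71.5% (69.4% to 73.6%) of VD-Mac and 36.1% (30.9% to 41.6%) of hSTSG, beside 1.36% (0.371% to 3.44%) of T-like cells of hSTSG, at median depths of 23647.5, 16745.5, 11051 and 5552 UMIs. Of thinned cells of the Mmp12 and Spp1 cluster of hSTSG, 58.2% (51.8% to 64.4%) had a Trem2 UMI, at a median depth of 14849 UMIs. Before thinning, Trem2 stood at 650 CPM in that cluster and 358 CPM in the graft's macrophage-like cells. Within the cultures, 3 of 84 thinned dendritic-like cells of Co-Mac (0.743% to 10.1%) and 2 of 133 of VD-Mac (0.183% to 5.33%) had one, at median depths of 13395 and 12474 UMIs, and 3.92% (3.21% to 4.74%) and 11.1% (10.0% to 12.2%) of mature-dendritic-like cells, at 14458.5 and 13697 UMIs. Between cells with and without it, none of the 2 members at 10 CPM in Co-Mac passed 2-fold, beside 1.23% of 7814 genes, and none of 3 in VD-Mac, beside 2.58% of 7701. In hSTSG 1 of 5 passed, beside 20.6% of 7733, and it was Ms4a4c on 1 UMI against 8, 4.27 CPM against 19.3 CPM, a ratio of 0.221 with an interval (0.00498 to 1.65) that holds 1. In the Mmp12 and Spp1 cluster 1 of 5 passed as well, beside 28.3% of 7636, and it was again Ms4a4c, on 3 UMIs in 145 cells with Trem2 against 17 UMIs in 104 cells without, 10.3 CPM against 81.7 CPM, a ratio of 0.127 (0.0238 to 0.438).

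Ms4a7 leaned towards cells with Trem2, in the graft under some processings only and by differing amounts. In hSTSG macrophage-like cells it had 1004 CPM with and 780 CPM without a Trem2 UMI, 1.29-fold (1.08 to 1.53), and 83.8% against 72.9% of cells had it. This ratio was 0.990-fold at 300 or more UMIs per cell in place of 300 genes and 1.00-fold at under 5% mitochondrial UMIs. It lay below 1.29-fold in 8 of 11 alternative processings and above it in 2. Among the 8 were 1.15-fold with doublets removed and 1.17-fold with 30 principal components. In VD-Mac Ms4a7 had 102 CPM and 78.1 CPM, 1.30-fold (1.01 to 1.69), and in the Mmp12 and Spp1 cluster 714 CPM and 514 CPM, 1.39-fold (1.09 to 1.77). Monocyte-like cells of hSTSG had 298 CPM and 268 CPM, 1.11-fold (0.693 to 1.71). By the number of Trem2 UMIs, 0, 1, 2 and 3 or more, the level of Ms4a7 in graft macrophage-like cells was 780, 973, 1040 and 1079 CPM, and in VD-Mac 78.1, 90.9, 88.0 and 125 CPM. In the Mmp12 and Spp1 cluster it was 514, 744, 600 and 768 CPM, without a steady climb. Pearson's r over cells was 0.153 in 324 graft cells and 0.0523 in 1845 VD-Mac cells, weak in each, and the cells share a library. Tyrobp, whose protein carries the TREM2 signal, gave 1.35-fold (1.14 to 1.60) in the graft cells.

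Ms4a6d, Ms4a6c and Ms4a6b were split by Trem2 in the same way. Ms4a6d had 1201 CPM with and 1155 CPM without it in graft macrophage-like cells (1.04-fold, 0.894 to 1.21), 42.4 CPM and 27.6 CPM in VD-Mac (1.54-fold, 1.01 to 2.40) and 88.1 CPM and 70.6 CPM in Co-Mac (1.25-fold, 0.995 to 1.56). Ms4a6c had 628 CPM and 630 CPM in the graft, 10.6 CPM and 10.5 CPM in VD-Mac and 14.4 CPM and 20.5 CPM in Co-Mac. At under 5% mitochondrial UMIs it was called lower with Trem2 in VD-Mac, on 1 UMI in 66 cells with against 1 UMI in 28 cells without, a ratio of 0.424 (0.00540 to 33.3). Ms4a6b had 269 CPM and 217 CPM in the graft (1.24-fold, 0.883 to 1.73). None of these ratios in the graft left the range that counting error allows around 1. Median depths before thinning were 14810 and 10214 UMIs with and without Trem2 in the graft, and 16811 and 16390 UMIs in VD-Mac.

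Reading more UMIs per cell changed this picture in VD-Mac. There the ratio of Ms4a7 between cells with and without Trem2 was 1.02 (0.745 to 1.39) at 1000 UMIs per cell, 1.30 at 2000, 3.00 (2.11 to 4.42) at 4000 and 6.03 (3.65 to 10.8) at 8000, the last depth being chosen after seeing the data. At 4000 UMIs it had 109 CPM in 1607 cells with and 36.2 CPM in 221 cells without Trem2, and at 8000 UMIs 107 CPM in 1634 and 17.7 CPM (9.90 to 29.2) in 106. Ms4a6d went the same way, with 1.31-fold, 1.54-fold, 2.72-fold (1.65 to 4.81) and 2.91-fold (1.72 to 5.35). So 2 of the 3 members at 10 CPM passed 2-fold at 4000 UMIs, beside 3.68% of 7799 genes, and 2 at 8000 UMIs, beside 6.25% of 7763. The VD-Mac cells without Trem2 also carried neutrophil RNA. The 7 neutrophil markers, of which 4 reached 10 CPM, 2 were lower with Trem2 past 2-fold and 1 was at 0 in each set, summed to 19472 CPM without and 1795 CPM with Trem2 at 8000 UMIs. S100a8, the most abundant, had 10213 CPM and 1049 CPM, and at 2000 UMIs the sums were 6614 CPM and 1620 CPM. The 9 macrophage markers summed to 2566 CPM and 2838 CPM, and none passed 2-fold. The part of the neutrophil RNA in the Ms4a7 and Ms4a6d ratios was not tested.

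**Figure D3:**
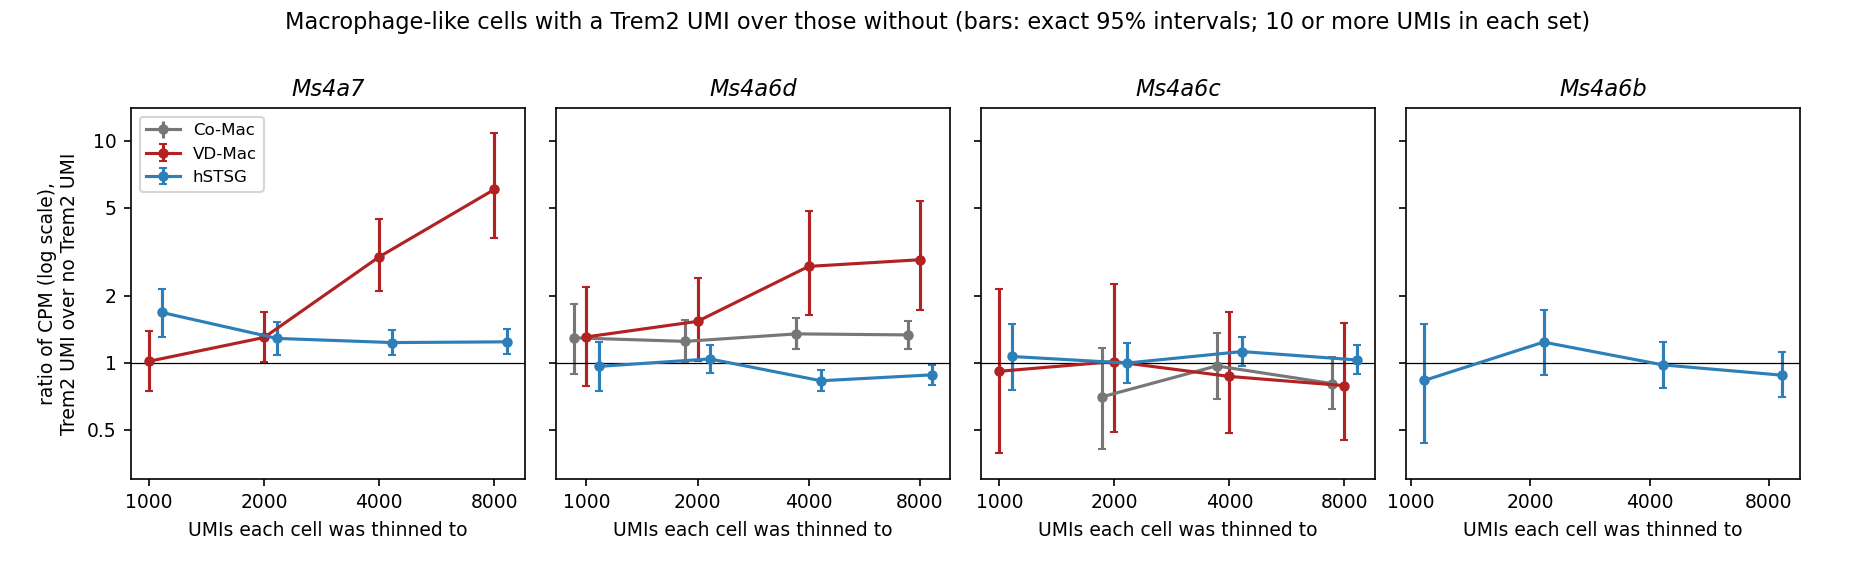
Ratio of the levels of Ms4a7, Ms4a6d, Ms4a6c and Ms4a6b between macrophage-like cells with and without a Trem2 UMI, on a log axis, for cells thinned to 1000, 2000, 4000 and 8000 UMIs, drawn where each set has 10 or more UMIs, with exact 95% intervals. In VD-Mac the Ms4a7 ratio climbs from 1.02 to 6.03, while in hSTSG it stays between 1.23 and 1.68.

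The macrophage-like cells of the other libraries were read at the same depths. Graft Ms4a7 gave 1.68-fold (1.31 to 2.16), 1.29-fold, 1.23-fold (1.09 to 1.40) and 1.24-fold (1.09 to 1.41). Graft Ms4a6d gave 0.829-fold (0.744 to 0.925) at 4000 and 0.882-fold (0.795 to 0.980) at 8000, slightly lower with Trem2 and beyond counting error, unlike the 1.04-fold at 2000. Ms4a6d in Co-Mac gave 1.35-fold (1.15 to 1.59) and 1.33-fold (1.16 to 1.55). RNA of other cell types moved with this split as well. At 8000 UMIs the 7 neutrophil markers, of which 3 reached 10 CPM, 2 were lower with Trem2 and 1 was at 0 in each set, summed to 1812 CPM without and 808 CPM with Trem2 in Co-Mac, with S100a8 at 1035 CPM and 372 CPM. Of the 6 mature dendritic markers, none at 0, 5 were lower with Trem2, and they summed to 572 CPM without and 239 CPM with it, with Ccl22 at 321 CPM and 132 CPM. The 9 macrophage markers summed to 1393 CPM and 2007 CPM, and none passed 2-fold. The part of these in the Ms4a6d ratio was not tested. Graft Ms4a4c in macrophage-like cells gave 0.674-fold (0.313 to 1.43) at 4000, and its call at 2000 UMIs was lost at each of the other depths.

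The Mmp12 and Spp1 cluster was read at the same depths after its values at 2000 UMIs had been seen. Of 5 members tested, 1 was called at 1000 UMIs beside 47.2% of 8519 genes, 1 at 4000 beside 25.6% of 7904 and 2 at 8000 beside 29.4% of 7532. Ms4a4c was lower with Trem2 at each of them, with 0 UMIs against 7 at 1000 UMIs, 0.404-fold (0.196 to 0.860) at 4000 and 0.378-fold (0.193 to 0.809) at 8000. Ms4a7 gave 0.989-fold (0.668 to 1.44) at 1000, 1.57-fold (1.23 to 2.02) at 4000 and 3.04-fold (2.09 to 4.60) at 8000, where only 16 cells were without Trem2 beside 177 with it. Marker genes moved with the split. At 4000 UMIs, the 9 macrophage markers, 2 of them higher with Trem2 past 2-fold and none at 0, summed to 6672 CPM without and 11768 CPM with Trem2, with Apoe at 1656 CPM and 4971 CPM. The 7 monocyte markers, 2 of them lower with Trem2 and none at 0, summed to 703 CPM and 438 CPM, with F13a1 at 188 CPM and 199 CPM. At 8000 UMIs they summed to 453 CPM and 464 CPM, with 1 higher with Trem2, none lower and 1 at 0 in the cells without it, while the macrophage markers summed to 7469 CPM and 11816 CPM. At 8000 UMIs the 6 mature dendritic markers, 3 of them lower with Trem2 and 2 at 0 in the cells without it, summed to 188 CPM without and 17.7 CPM with Trem2, with Ccl22 at 133 CPM and 2.82 CPM, but at 4000 UMIs to 31.3 CPM and 22.5 CPM with 1 lower. The 7 neutrophil markers summed to 414 CPM without and 312 CPM with Trem2 at 8000 UMIs. Of them, 1 was higher and 1 lower with Trem2, and 2 were at 0 in the cells without it. Mmp9, the most abundant, was at 242 CPM and 24.7 CPM. The part of these marker sets in the ratios was not tested.

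The genes nearest to each member were sought across 16 classes of 50 or more cells in the 3 libraries. Pearson's r was taken of log2(CPM + 5) among 6139 genes that reached 50 CPM. The classes share libraries, 5 each from the cultures and 6 from the graft, so that they are not independent points. Ms4a4b was nearest to Rundc3b (0.977), Cd2 (0.975) and Cd5 (0.970), of which Cd2 and Cd5 are T cell surface genes and Cd5 a marker used for naming. Ms4a4c was nearest to Alpk2 (0.977), Osgin2 (0.972) and Wwc1 (0.964), and Ms4a6b to Ccl24 (0.954), Slc30a1 (0.952) and Ednrb (0.952). Ms4a6c was nearest to another member of its family, Ms4a8a (0.948), then Wwc1 (0.947) and Ednrb (0.940). Ms4a6d was nearest to Mrc1, the macrophage mannose receptor (0.964), Pdxk (0.955) and Arl8b (0.936). Ms4a7 was nearest to Ednrb (0.905) and then the complement gene C1qa (0.892). The macrophage markers Mrc1 and C1qa were also used for naming. Between members, r was 0.928 for Ms4a6c and Ms4a6d and 0.921 for Ms4a6b and Ms4a6c, and against Trem2 it was 0.338 for Ms4a7 and 0.337 for Ms4a6d. The B-like and basophil-or-mast-like classes were too small to enter, so that Ms4a1 and Ms4a2 reached only 5.34 CPM and 2.00 CPM, and their nearest genes Timm17b (0.587), Tmem243 and Lrrc41, and Mpo (0.881), Ctsg and Prg2, rest on these few UMIs.

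The members share a chromosome. On chromosome 19 of GRCm38, all 19 Ms4a genes lie together, and the 8 members span 374045 bases from 11249675 to 11623719, with the gene identifiers of the annotation the same as those in the matrices. The deposited labels name mm9 as the build while the matrices carry no positions, so that places are those of the annotation. From low to high position come Ms4a1 (ENSMUSG00000024673), Ms4a7 (ENSMUSG00000024672), Ms4a4c (ENSMUSG00000024675), Ms4a4b (ENSMUSG00000056290), Ms4a6c (ENSMUSG00000079419), Ms4a6b (ENSMUSG00000024677), Ms4a6d (ENSMUSG00000024679) and Ms4a2 (ENSMUSG00000024680). Some neighbours in this order were alike over the 16 classes and others were not. The r between neighbours was 0.921 for Ms4a6c and Ms4a6b, 0.845 for Ms4a6b and Ms4a6d, 0.726 for Ms4a7 and Ms4a4c, 0.435 for Ms4a4c and Ms4a4b and 0.329 for Ms4a4b and Ms4a6c, and under 0 for the pairs with Ms4a1 and Ms4a2. Ms4a4c and Ms4a4b have monocyte-like and T-like cells as their highest graft classes. Ms4a2 lies next to Ms4a3, which is not a member and which had 589 CPM in the basophil-or-mast-like cells of Co-Mac, the class of Ms4a2. Trem2 lies apart, on chromosome 17 at 48346401 to 48354147.

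**Figure D4:**
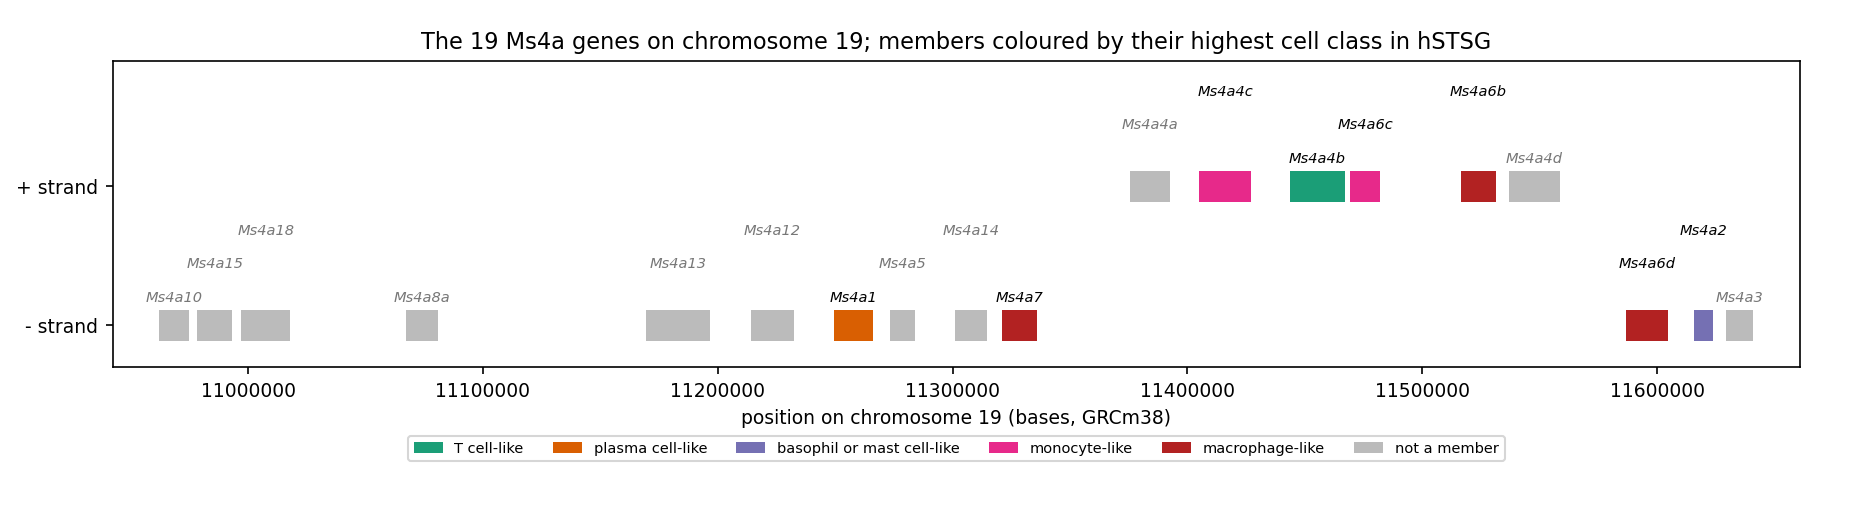
Positions of the 19 Ms4a genes on chromosome 19 of GRCm38, members coloured by the graft class with their highest level and each strand on its own line. Of the members, Ms4a4c, Ms4a4b, Ms4a6c and Ms4a6b lie on the plus strand, and Ms4a1, Ms4a7, Ms4a6d and Ms4a2 lie on the minus strand.

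Like sequence could blur the counts of close relatives, so that shared stretches were counted. Of the 50-base stretches in the annotated transcripts of Ms4a4c, 8.19% also occur in another Ms4a gene, member or not, most in Ms4a4b. For Ms4a6c the share was 5.85%, most in Ms4a6b. The share was 3.44% for Ms4a6b, 2.31% for Ms4a6d, 2.24% for Ms4a4b, 2.10% for Ms4a2 and 0% for Ms4a1 and Ms4a7. A single differing base removes every stretch that holds it. The shares thus count exact 50-base matches, and do not give how much of the transcripts differs.

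Promoters from RefSeq on GRCm38.p6, each 300 bases from 250 before to 50 after the transcription start, were found for 6 of the 8 members, with 7 entries, since Ms4a7 has 2. Ms4a1 and Ms4a6d had no entry. The start is that of the RefSeq entry. For Ms4a6b and Ms4a4c the annotated gene begins before the window, at 11516512 and 11404770. Ms4a7 is shown because it moved most with VD3 (chr19:11336097-11336396, minus strand). Capitals mark the 50 bases from the start on.
Ms4a7: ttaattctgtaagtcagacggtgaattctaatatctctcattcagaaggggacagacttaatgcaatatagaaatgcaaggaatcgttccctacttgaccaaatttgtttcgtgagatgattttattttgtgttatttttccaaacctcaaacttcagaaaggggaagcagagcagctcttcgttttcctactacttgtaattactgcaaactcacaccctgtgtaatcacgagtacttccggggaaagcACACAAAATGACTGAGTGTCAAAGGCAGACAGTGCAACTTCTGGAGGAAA
Neither entry of Ms4a7 holds AGGTCA, a 6-base word bound by the vitamin D receptor, which 16.2% of all 32544 promoters hold on either strand, or AGTTCA, its other form, which 14.0% hold. It also lacks GAGGAAGT, the word of the macrophage factor PU.1 (3.11% of promoters), and TTGCGCAA of the C/EBP factors (0.184%). The letters are absent from these windows only.

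By global alignment of the promoters, the pair most alike was Ms4a4b and Ms4a4c, with 226 of 300 bases the same (75.3%), followed by Ms4a6b and Ms4a6c with 192 (64.0%). The other pairs lay between 45.7% and 55.0%. Ms4a4b (chr19:11443308-11443607, plus strand) and Ms4a4c (chr19:11407411-11407710, plus strand) are shown because their promoters are alike while their cell types differ. Capitals mark the 74 bases of each that are not the same in the alignment.
Ms4a4b: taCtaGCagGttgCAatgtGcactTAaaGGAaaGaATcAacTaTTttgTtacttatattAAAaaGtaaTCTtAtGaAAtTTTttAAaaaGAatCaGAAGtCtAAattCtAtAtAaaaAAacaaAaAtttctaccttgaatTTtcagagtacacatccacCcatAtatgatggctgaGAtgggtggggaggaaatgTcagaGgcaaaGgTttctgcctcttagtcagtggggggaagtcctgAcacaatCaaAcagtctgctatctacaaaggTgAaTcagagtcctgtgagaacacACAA
Ms4a4c: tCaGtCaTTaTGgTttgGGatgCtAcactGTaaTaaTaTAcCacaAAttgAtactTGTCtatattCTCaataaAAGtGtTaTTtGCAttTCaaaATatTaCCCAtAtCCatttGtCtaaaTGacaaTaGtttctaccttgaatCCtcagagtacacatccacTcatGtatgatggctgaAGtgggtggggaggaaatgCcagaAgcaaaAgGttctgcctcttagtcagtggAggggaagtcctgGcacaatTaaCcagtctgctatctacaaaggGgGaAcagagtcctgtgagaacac
Beside these like promoters, graft Ms4a4b stood at 226 CPM in T-like and 10.7 CPM in monocyte-like cells. Ms4a4c had 17 UMIs in T-like cells and 554 UMIs, or 185 CPM, in monocyte-like ones.

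The other pair, Ms4a6b (chr19:11518309-11518608, plus strand) and Ms4a6c (chr19:11469118-11469417, plus strand), is shown because both hold AGTTCA on both strands. Capitals mark its matches, 18 bases in Ms4a6b and 12 in Ms4a6c.
Ms4a6b: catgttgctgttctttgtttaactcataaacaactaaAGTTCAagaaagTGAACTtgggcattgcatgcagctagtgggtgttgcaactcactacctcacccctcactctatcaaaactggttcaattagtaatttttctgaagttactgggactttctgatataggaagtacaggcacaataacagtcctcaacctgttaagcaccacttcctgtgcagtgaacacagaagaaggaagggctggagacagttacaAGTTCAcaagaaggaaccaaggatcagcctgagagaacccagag
Ms4a6c: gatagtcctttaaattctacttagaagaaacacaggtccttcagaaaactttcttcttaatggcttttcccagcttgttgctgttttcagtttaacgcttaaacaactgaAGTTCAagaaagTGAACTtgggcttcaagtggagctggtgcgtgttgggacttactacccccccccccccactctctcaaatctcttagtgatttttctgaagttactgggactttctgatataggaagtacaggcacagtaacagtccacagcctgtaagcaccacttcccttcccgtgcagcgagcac
In each, AGTTCA and its reverse complement face each other 6 bases apart, as AGTTCANNNNNNTGAACT, starting at base -213 of Ms4a6b and -140 of Ms4a6c. That arrangement, searched for after the matches were seen and overlapping them by its make-up, occurs in 3 of 32544 promoters (0.00922%). Of the words searched, AGTTCA and this pair were the only ones found in a member's promoter. A match describes letters and no binding, and in macrophage-like cells VD-Mac over Co-Mac gave 1.78-fold for Ms4a6b and 0.705-fold for Ms4a6c.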

How the data were processed

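The deposited values are counts: per the file headers, the authors made UMI counts per gene and barcode with Cell Ranger (matrix header 3.1.0), and they analysed them in Seurat 3.1.1. From these counts, barcodes were kept by the limits given in the report and clustered per library with Seurat 5.3.0 in R 4.3.3 (log scale to a total of 10000, 2000 variable genes, 15 principal components, 15 neighbours, resolution 0.5; mixed clusters split at 0.8). A cluster was named at a marker score of 0.5 or more with 3 or more markers in 10% of its cells. Levels, ratios, thinned shares and exact intervals (Poisson, Clopper-Pearson, conditional binomial) were computed in Python 3.11.15 with numpy 2.4.6, scipy 1.17.1 and pandas 2.3.3, drawn with matplotlib 3.10.9, and promoters were aligned with biopython 1.88. The scripts were tested on simulated data.

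A gene was called at 2-fold or more with 10 CPM or more in the higher group. The genes named are all Ms4a genes, Trem2, the genes of the lists (the related 4-span genes, B cell receptor partners, the IgE receptor complex, TREM2 signalling and shedding, and the T cell receptor complex) and, for each member, the 3 genes with the nearest pattern over classes. Members and lists were chosen with earlier results of these data known. Alternatives tried were other clustering settings, cell filters, doublet removal, scalings, minimum levels, a 1.5-fold call, the class make-up of the cultures and other thinning depths. Hashtag antibody features were left out, since no label ties a hashtag to a mouse.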

Additional observations from a re-analysis of the deposited data

Results flagged for a closer look

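The graft library also holds 1195935 UMIs in 20 hashtag antibody features, while the 10 such features of each culture hold 0. It is listed because these UMIs belong to no comparison made here. No label ties a hashtag to one of the 5 pooled mice, so that the spread of the members between mice was not tested.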

How the results depend on the processing

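Of 60 alternatives for 7 counts of members, 44 stayed within 1.5 times the reported count and 16 did not. A count within that range can hold other classes. In hSTSG the highest class of Ms4a6b went from macrophage-like to monocyte-like in 5 of 7 alternatives, and that of Ms4a4c to dendritic-like at resolution 0.3. In Co-Mac those of Ms4a4b and Ms4a6b went from B-like to megakaryocyte-like at 300 or more UMIs per cell, and Ms4a6d was no longer counted at resolution 0.3. In Co-Mac, 2 members had a highest class beyond counting error at under 5% mitochondrial UMIs, where no B-like class was found. For VD-Mac over Co-Mac in all kept cells, 4 were called with no minimum level, 0 at 50 CPM or more and 1 with equal class make-up. In macrophage-like cells, 2 were called at under 5% mitochondrial UMIs, 5 with no minimum and 2 at 1.5-fold. The share of all genes called at these settings is not given, so that these counts have no background. The members added with no minimum lay under 10 CPM in both cultures. For Trem2 in hSTSG macrophage-like cells, 0 were called at 300 or more UMIs per cell and at 1000, 4000 and 8000 UMIs. For Trem2 in those of VD-Mac, 1 was called at under 5% mitochondrial UMIs (Ms4a6c, lower, on 1 UMI in each set), 1 at 1.5-fold (Ms4a6d, higher), and 2 at 4000 and at 8000 UMIs. Among these Trem2 alternatives in macrophage-like cells, the share of all genes called is given only for VD-Mac at 4000 and 8000 UMIs. In the Mmp12 and Spp1 cluster of hSTSG 2 of 5 were called at 8000 UMIs, beside 29.4% of all genes. Thinning to 8000 UMIs, and every depth but 2000 UMIs for that cluster, was chosen after seeing the data. The cause was not tested. Ms4a6c was called lower in all kept cells with doublets removed or at 1.5-fold. Ms4a7 in VD-Mac over Co-Mac ranged from 18.2-fold to 28.1-fold in all kept cells and from 41.0-fold to 96.8-fold in macrophage-like cells. Depth limits the Trem2 split: at 2000 UMIs a cell without a Trem2 UMI may still express it.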
